A study of Mus musculus with 106 samples.

Results

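The carbonic anhydrases examined here are 8 genes, Car2, Car4, Car7, Car8, Car9, Car10, Car11 and Car12, listed by symbol with earlier results of these data known, out of 16 protein-coding carbonic anhydrase genes and 21897 protein-coding genes in the count table. Each symbol was matched to 1 Ensembl gene, and all 8 were found. The libraries come from 45 mice of about 9 months on a 129S4 background that carried the RiboTag allele Rpl22-HA and a Cre driver, both heterozygous. HD mice were Hdh^Q7/Q200, with 1 knock-in allele of the mouse huntingtin gene carrying a long CAG repeat, and control mice were Hdh^Q7/Q7. Ribosome-bound mRNA was precipitated (IP) from Gad2, PV, SST or vGluT2 neurons of the cerebrum and from Gad2 or vGluT2 neurons of the cerebellum, and total RNA was taken from the same kind of tissue. There were 67 IP and 39 total RNA libraries, 54 of control and 52 of HD mice.

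Each IP reports the cells in which the promoter driving Cre has been active, so vGluT2-IRES-Cre, Gad2-IRES-Cre and PV-IRES-Cre each tag several kinds of neuron. The SST line is not described in the study's methods. Its control mice carried labels starting with BR or Z and its HD mice only BR, so label series and genotype are partly mixed there. No glial cell was tagged, so for glia the data hold total RNA and the depletion of an mRNA in the neuronal IPs. The Gad2 IP of the cerebellum takes in Purkinje cells and interneurons, and the vGluT2 IP of the cerebellum takes in granule cells, as the markers below show. The tissue came from a single hemisphere of each brain, and the other hemisphere was kept for histology. The cerebrum was taken without the olfactory bulb and was not divided into regions.

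Carbonic anhydrases catalyse the reversible hydration of carbon dioxide to bicarbonate and a proton, and in brain they set the speed of pH buffering and supply bicarbonate to its transporters and to GABA receptor channels. Cytosolic forms (Car2, Car7) act inside cells, and membrane-bound forms (Car4, Car9, Car12) act on the extracellular side. Car8, Car10 and Car11 have lost the residues needed for catalysis and serve as binding proteins: Car8 binds the inositol trisphosphate receptor in Purkinje cells, and Car10 and Car11 are secreted, Car10 as a partner of neurexins.

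The tagged cells were checked against their defining markers in control libraries, in TMM-scaled CPM. Mean Gad2 was 418 CPM in the cerebral Gad2 IP against 98.1 CPM in total RNA of that line, and 267 against 78.6 CPM in the cerebellum. Mean Slc17a6, which encodes vGluT2, was 114 CPM in the cerebral vGluT2 IP (42.8 to 155 CPM) against 33.1 CPM in total RNA (21.5 to 47.6 CPM). In the cerebellar vGluT2 IP it was 22.6, 46.1, 22.6, 24.5 and 109 CPM, median 24.5 CPM, against 10.8, 9.46, 6.46 and 61.3 CPM in total RNA, median 10.1 CPM. The IP and total RNA ranges of Slc17a6 overlapped in both regions, and in the cerebellum 1 library of each set stood well above the others. Pvalb averaged 615 CPM in the PV IP against 100 CPM in total RNA, and Sst 1326 against 135 CPM in the SST IP. For Gad2, Pvalb and Sst every IP library was above every total RNA library of the same line. Slc17a6 was also higher in the PV IP (117 CPM) and in the SST IP (106 CPM) than in total RNA of those lines (51.0 and 56.5 CPM). The 7 Purkinje markers summed to 5656 to 10441 CPM in the 6 control libraries of the cerebellar Gad2 IP and to 205 to 322 CPM in the 5 of the cerebellar vGluT2 IP. The 5 markers of molecular layer and Golgi interneurons summed to 1205 to 1773 CPM in the former and 268 to 440 CPM in the latter. The 6 granule markers summed to 869 to 1649 CPM in the Gad2 IP and to 8273 to 11510 CPM in the vGluT2 IP, so the cerebellar IPs separated these cell types, with a remainder of the other in each.

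Some libraries stood apart. In 12 of the 69 cerebral libraries the Purkinje marker Pcp2 exceeded 10 CPM, from 12.1 to 163 CPM, against 0 to 7.45 CPM in the other 57. These were C_GadCer replicates 3 and 4, HD_GadCer replicates 2 and 3, C_PV replicates 2, 4 and 6, HD_PV replicate 3, C_GadCer_tot replicate 2, HD_GadCer_tot replicate 2, C_SST_tot replicate 1 and HD_PV_tot replicate 2. The re-sequenced library HD_VglutCer replicate re1 had 12423 protein-coding genes with at least 10 counts, the fewest of its group, whose others had 14109 to 14619. The other libraries taken as re-sequenced were HD_GadCb replicate re1 and HD_PV replicate re2, the deepest of all at 93692499 and 107753586 counts. The study re-sequenced failed libraries with longer reads. All of these are from HD mice, so sequencing run and genotype are partly mixed in their groups. Total RNA libraries also leaned towards long or short transcripts to different degrees. The correlation across genes of a library's deviation from the mean of its region with log10 transcript length was 0.41, 0.40, 0.26 and 0.35 in C_VglutCb_tot and -0.18, -0.46, -0.47 and -0.29 in HD_VglutCb_tot. In that line the lean and the genotype cannot be told apart by group, whereas in the Gad2 line the control values were -0.18, 0.54 and -0.24 and the HD values -0.20, -0.42 and 0.48. Genes are not independent replicates in these correlations.

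Among the cytosolic enzymes, Car2, the fast isoform best known from oligodendrocytes, was high in total RNA and low in most neuronal IPs. In control cerebral total RNA it lay between 232 and 339 CPM over 13 libraries, with a median of 273 CPM. The 6 control libraries of the cerebral vGluT2 IP ran from 18.5 to 36.8 CPM with a median of 25.9 CPM, and those of the cerebral Gad2 IP from 38.6 to 81.6 CPM with a median of 44.6 CPM. The ranges of total RNA and of these IPs did not overlap. The SST IP (132, 152, 115, 92.8 and 145 CPM) and the PV IP (94.8 to 134 CPM, median 120 CPM) sat between them and overlapped each other. In the cerebellum Car2 was 179 to 241 CPM in the Gad2 IP, median 182 CPM, near total RNA (185 to 250 CPM over 7 libraries). The cerebellar vGluT2 IP was lower, at 31.4, 54.5, 33.2, 34.4 and 34.3 CPM. By edgeR, Car2 in control mice was lower in the IP than in total RNA by a log2 change of -3.39 (SE 0.12, adjusted p = 2.69e-14) in cerebral vGluT2 neurons, -2.43 (SE 0.15) in cerebral Gad2 neurons and -2.66 (SE 0.16) in cerebellar vGluT2 neurons. In cerebellar Gad2 neurons the change was -0.20 (SE 0.10, adjusted p = 0.0989). The p-values rest on the spread between libraries. Where IP is set against total RNA, or region against region, some mice gave libraries to both sides. Those fits treat such libraries as independent.

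The oligodendrocyte list was lower in the IPs, in most of them beside a lower Car2. Of its 8 genes, 8 were called lower in the cerebral Gad2 and vGluT2 IPs and in both cerebellar IPs against total RNA, with medians of -2.86, -3.88, -2.27 and -2.83 on the log2 scale beside medians between -0.02 and 0.03 over all genes tested. In the PV and SST IPs 6 of the 8 were called lower and 0 and 1 higher, with medians of -1.67 and -1.15. Its sum in control libraries had a median of 550 CPM in the cerebral vGluT2 IP, 872 CPM in the cerebral Gad2 IP, 2071 CPM in the PV IP and 3288 CPM in the SST IP, against 5198 to 7272 CPM in cerebral total RNA. Mbp was its most abundant gene in the cerebral Gad2, PV and vGluT2 IPs, and no gene of the list was at 0 in any control library. In the cerebellar Gad2 IP the list's sum was 732 to 1511 CPM against 4099 to 5347 CPM in total RNA, while Car2 stayed near its total RNA level and was not called, so there the list and Car2 parted. How far oligodendrocyte RNA adds to Car2 in the IPs was not tested.

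Car7, the cytosolic isoform found in neurons, where it makes bicarbonate that leaves through GABA receptor channels, was highest in the cerebellar Gad2 IP. Its 6 control libraries ran from 125 to 207 CPM, with a median of 162 CPM. In cerebellar total RNA it was 42.4 to 90.4 CPM, median 63.0 CPM, and in the cerebellar vGluT2 IP 9.74 to 15.8 CPM, median 12.8 CPM. These ranges did not overlap. Every cerebral IP had means between 9.12 and 16.5 CPM, the vGluT2 IP the highest, and it exceeded the cerebral Gad2 IP by a log2 difference of 0.84 (SE 0.19, adjusted p = 0.00310). Car7 was higher in the cerebellar Gad2 IP than in total RNA (log2 change 1.34, SE 0.16, adjusted p = 3.02e-06) and lower in the cerebellar vGluT2 IP than in the Gad2 IP (-3.71, SE 0.17, adjusted p = 3.09e-10).

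Of the membrane enzymes, Car4, which is held on the cell surface by a lipid anchor, was highest in the cerebellar vGluT2 IP, at 182, 115, 128, 161 and 102 CPM. Cerebellar total RNA was lower, at 73.5, 42.9 and 70.2 CPM in the Gad2 line and 49.0, 52.2, 75.0 and 34.3 CPM in the vGluT2 line. The 6 control libraries of the cerebellar Gad2 IP had 7.75 to 15.03 CPM with a median of 12.5 CPM, below all of these. In the cerebrum the vGluT2 IP also led (20.6 to 35.1 CPM, median 25.4 CPM), ahead of the Gad2 IP (5.74 to 8.20 CPM, median 6.10 CPM) and the PV IP (2.75 to 6.68 CPM, median 5.71 CPM). The Gad2 and PV IPs of the cerebrum did not differ beyond their spread. Car4 thus had its higher levels in vGluT2 neurons of both regions. The vGluT2 IP exceeded the Gad2 IP by a log2 difference of 3.54 (SE 0.20, adjusted p = 2.23e-09) in the cerebellum and 1.97 (SE 0.16, adjusted p = 1.22e-07) in the cerebrum.

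Car9, a transmembrane enzyme whose gene is a classical target of hypoxia-inducible factor, was a cerebellar mRNA in these libraries. In the cerebellar vGluT2 IP of controls it was 25.4, 20.9, 20.9, 25.7 and 21.8 CPM. Total RNA of the cerebellum had 11.4, 8.32 and 13.2 CPM in the Gad2 line and 8.14, 10.04, 9.79 and 8.49 CPM in the vGluT2 line. The cerebellar Gad2 IP had 1.58 to 2.97 CPM, with a median of 2.19 CPM, and no cerebral control library exceeded 1.41 CPM. The 3 kinds of cerebellar library did not overlap. Cerebellar total RNA exceeded cerebral total RNA by a log2 difference of 4.63 (SE 0.23, adjusted p = 3.33e-09), and the cerebellar vGluT2 IP exceeded the Gad2 IP by 3.38 (SE 0.18, adjusted p = 1.03e-09). In the cerebrum the mean was at most 0.861 CPM, in the Gad2 IP, and 3 control libraries, 1 of the PV IP and 2 of the vGluT2 IP, had no count.

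Car12, the other transmembrane enzyme, which is prominent in secretory epithelia, had its highest control mean in the cerebral Gad2 IP. There it was 25.1 to 37.7 CPM, median 28.3 CPM, above cerebral total RNA (15.3 to 23.3 CPM, median 21.3 CPM) without overlap. The PV IP had 5.67 to 10.1 CPM with a median of 7.36 CPM. Against total RNA, Car12 was higher in the cerebral Gad2 IP (log2 change 0.58, SE 0.09, adjusted p = 1.62e-05) and lower in the PV IP (-1.28, SE 0.11, adjusted p = 2.17e-09). With mouse as a block, the former was 0.64 (SE 0.21) with an adjusted p of 0.0747, in a range from 4.92e-07 to 0.0747 over its alternatives.

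Car12 spread most widely in the cerebellum. In C_GadCb_tot its 3 libraries had 32.5, 15.8 and 1.53 CPM, and Ttr, the most abundant gene of the choroid plexus list, had 4779, 1824 and 31.4 CPM in the same libraries. In C_VglutCb_tot, Car12 was 15.7, 8.62, 9.91 and 2.53 CPM beside Ttr at 1567, 1475, 1828 and 184 CPM. Of the 10 cerebellar libraries with the most Ttr, 8 were also among the 10 with the most Car12, out of 37. Those 10 with the most Ttr are all total RNA, and no cerebellar IP library exceeded 496 CPM of Ttr. Mean control Car12 was also higher in total RNA than in the IP, at 16.6 and 4.87 CPM (Gad2 line) and 9.19 and 5.29 CPM (vGluT2 line). This overlap therefore does not separate Ttr from the kind of library. The sum of the 6 choroid plexus genes in cerebellar total RNA ran from 53.0 to 4963 CPM in controls and from 45.6 to 1853 CPM in HD mice. For no other member did the overlap exceed 3 libraries. Whether choroid plexus RNA accounts for Car12 there was not tested. The IP difference for Car12 in cerebellar vGluT2 neurons (log2 change -1.34, SE 0.55, adjusted p = 0.0495) was called in 1 of 11 alternatives, with mouse as a block (adjusted p = 0.00341). It was lost in the other 10, among them DESeq2 (adjusted p = 0.0571), total RNA of the same line (0.0537) and each fit without 1 of C_VglutCb replicates 1, 2, 3, 4 and 5 (0.0843, 0.0535, 0.106, 0.0905 and 0.0922).

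Of the forms without enzyme activity, Car8, the Purkinje cell partner of the inositol trisphosphate receptor, reached the highest count of any member. In the cerebellar Gad2 IP its 6 control libraries had 3026 to 4461 CPM with a median of 3817 CPM. Cerebellar total RNA had 963, 1152 and 1139 CPM in the Gad2 line and 1217, 1141, 990 and 1231 CPM in the vGluT2 line, and the cerebellar vGluT2 IP had 154, 284, 137, 174 and 153 CPM. These ranges did not overlap, and the order followed that of the Purkinje marker sums. The cerebellar vGluT2 IP was lower than the Gad2 IP by a log2 difference of -4.40 (SE 0.20, adjusted p = 3.36e-10), and Itpr1, which encodes its receptor partner, was lower by -3.30 (SE 0.30, adjusted p = 2.45e-07).

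In the cerebrum Car8 followed Pcp2. The 12 libraries with Pcp2 above 10 CPM were the 12 with the most Car8, at 40.2 to 597 CPM with a median of 53.2 CPM, against 0.0404 to 28.8 CPM and a median of 10.1 CPM in the other 57. For the other members, at most 4 of those 12 libraries were among the 12 highest. In HD_PV replicate 3, the highest, Car8 was 597 CPM, Pcp2 163 CPM and the granule marker Gabra6 78.6 CPM, and its Purkinje marker sum of 1338 CPM stood against 125 to 160 CPM in the other 4 libraries of that group. Calb1 was the most abundant Purkinje marker in each cerebral group, and it is also expressed by cerebral neurons. Car8 exceeded total RNA in the PV IP with a log2 change of 1.98 (SE 0.49, adjusted p = 0.00134), and exceeded the SST IP by 2.10 (SE 0.66, adjusted p = 0.0412). Without the 12 libraries these were 0.44 (SE 0.23, adjusted p = 0.108) and 0.11 (SE 0.26, adjusted p = 0.847), a choice made after the values were seen. The difference from the SST IP was also lost without any 1 of C_SST replicates 1, 2, 3, 4 and 6, at adjusted p of 0.0850, 0.0583, 0.0705, 0.0712 and 0.0724. Over all alternatives the adjusted p ran from 0.0230 to 0.847.

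**Figure D1:**
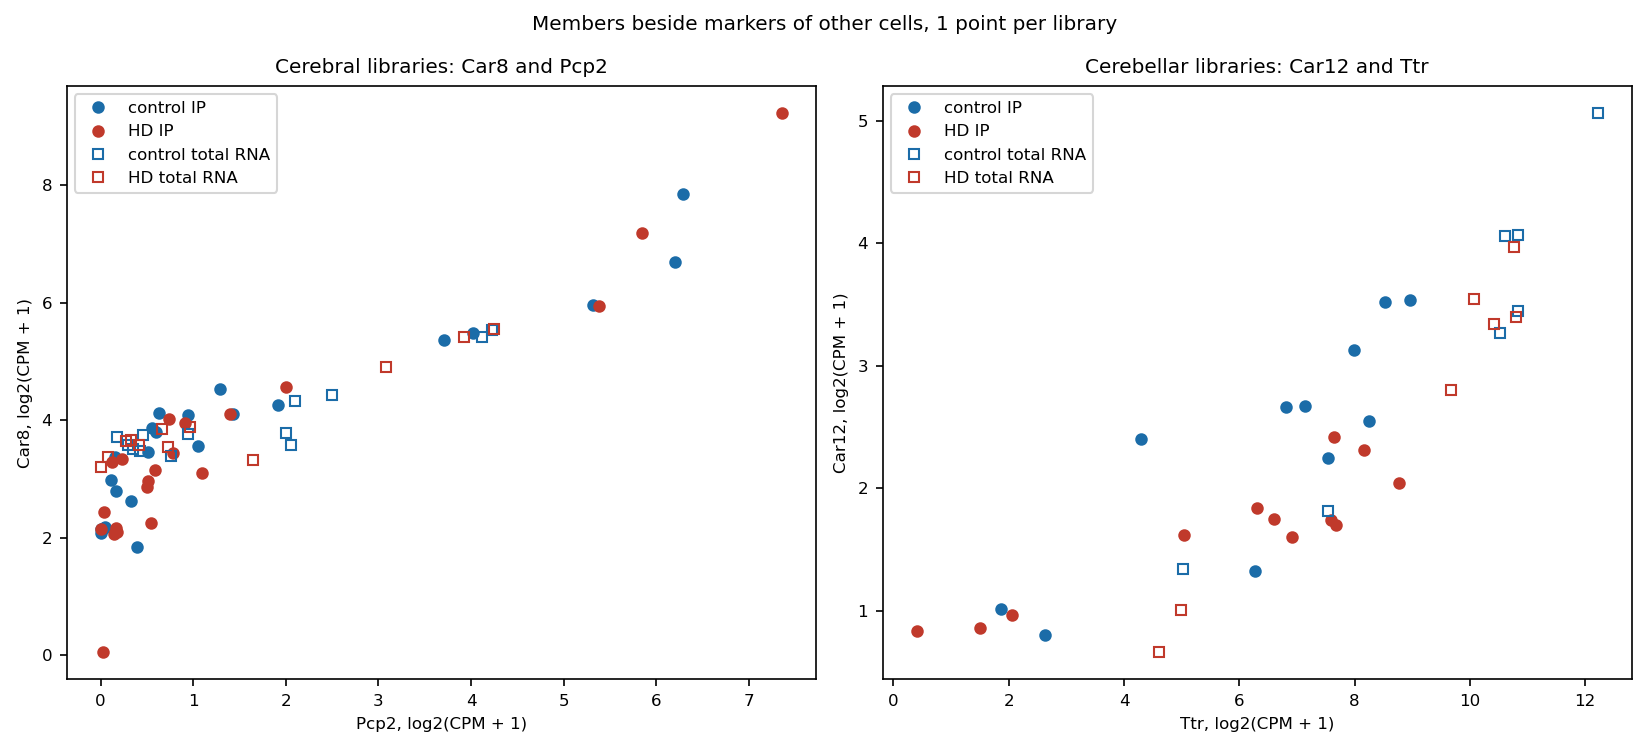
Each point is 1 library, with Car8 against Pcp2 in the 69 cerebral libraries on the left and Car12 against Ttr in the 37 cerebellar libraries on the right, all as log2(CPM + 1). Filled circles are IP and open squares total RNA, blue control and red HD; Car8 is above 40 CPM in each of the 12 libraries with Pcp2 above 10 CPM.

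Car10, the secreted neurexin partner, was highest in vGluT2 neurons. It was 239 to 360 CPM in the cerebellar vGluT2 IP, median 296 CPM, and 162 to 236 CPM in the cerebral one, median 206 CPM. The Gad2 IPs were lowest, with 28.0 to 60.0 CPM (median 39.9 CPM) in the cerebellum and 37.0 to 63.7 CPM (median 44.4 CPM) in the cerebrum. The vGluT2 and Gad2 IPs did not overlap in either region, with log2 differences of 2.78 (SE 0.18, adjusted p = 7.05e-09) and 2.12 (SE 0.15, adjusted p = 2.25e-08). Nrxn2 was higher in the cerebellar vGluT2 IP than in the Gad2 IP by 1.14 (SE 0.10), while Nrxn3 differed by -0.07 (SE 0.12, adjusted p = 0.635).

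Car11, the other secreted form, was more a cerebral mRNA. It was 93.4 to 220 CPM in cerebral total RNA, median 169 CPM, and 44.8 to 73.3 CPM in cerebellar total RNA, median 53.1 CPM, without overlap (log2 difference of cerebellum from cerebrum -1.51, SE 0.17, adjusted p = 5.24e-06). Within the cerebrum the Gad2 IP (150 to 201 CPM, median 166 CPM) and the vGluT2 IP (114 to 182 CPM, median 139 CPM) overlapped total RNA. The PV IP (66.9 to 91.9 CPM, median 72.6 CPM) was lower, by a log2 change of -1.0 (SE 0.13, adjusted p = 8.66e-07) against total RNA. In order of mean level, neighbouring groups overlapped throughout for Car11.

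**Figure D2:**
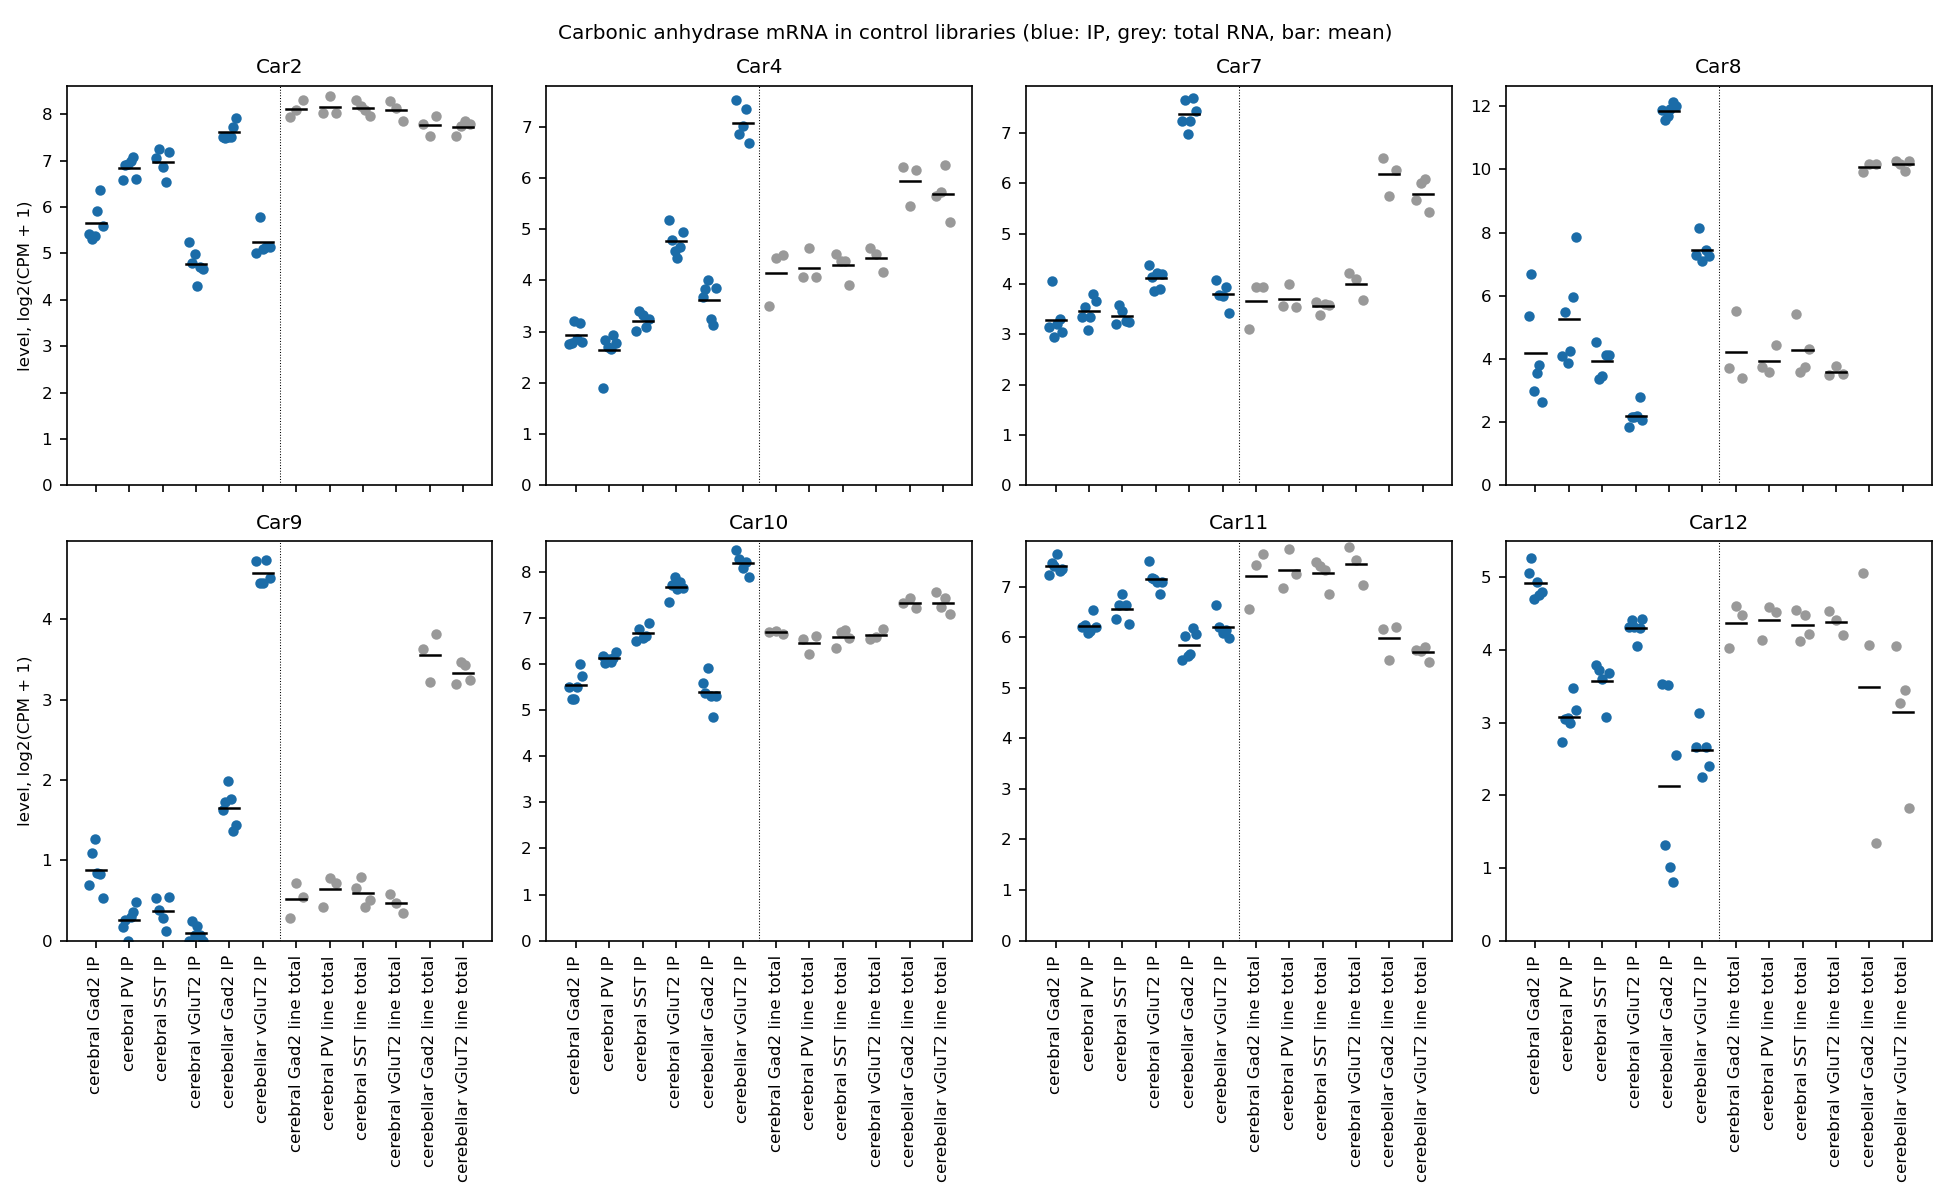
Each panel shows 1 gene in the 54 control libraries, as log2(CPM + 1), with 1 point per library and a bar at the mean of each of 6 IP groups (blue) and 6 total RNA groups (grey). Car7 and Car8 peak in the cerebellar Gad2 IP, Car4, Car9 and Car10 in the cerebellar vGluT2 IP, and Car2 is higher in total RNA than in most IPs.

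Per kilobase of exon, the scale on which different genes can be compared, the levels ranked differently in each cell type. In the cerebellar Gad2 IP the mean level of Car8 was 974 CPM per kilobase, ahead of Car2 at 81 and Car7 at 46.1 CPM per kilobase. In the cerebellar vGluT2 IP Car4 led at 69.9 CPM per kilobase, followed by Car8 at 46.8 and Car10 at 46.6 CPM per kilobase. Car2 led in cerebral total RNA, with a mean level of 118 CPM per kilobase in the PV line beside 85.2 for Car11. In the cerebral Gad2 IP Car11 led at 88.1 CPM per kilobase. Car9 ranked sixth of the 8 in its highest group, the cerebellar vGluT2 IP, at 9.96 CPM per kilobase, and last in the cerebral Gad2 IP. With the longest transcript as length, Car10 came before Car8 in the cerebellar vGluT2 IP, and the genes named first in each group kept their place.

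Counted over members, the comparisons of control libraries read as follows against the share of all genes called. In the IP against total RNA, 6 of 8 were called in cerebral Gad2 neurons (2 higher, 4 lower; 62.6% of all genes called), 7 in PV neurons (1 higher, 6 lower; 69.2%), 4 in SST neurons (all lower; 61.9%) and 6 in cerebral vGluT2 neurons (3 higher, 3 lower; 64%). In the cerebellum the counts were 5 of 8 in Gad2 neurons (2 higher, 3 lower; 57.1%) and 7 in vGluT2 neurons (3 higher, 4 lower; 56.7%), of which Car12 was called in only 1 of 11 alternatives. The vGluT2 IP differed from the Gad2 IP for 6 of 8 in the cerebellum (56.4%) and 7 of 8 in the cerebrum (29.8%), and the PV from the SST IP for 5 of the 7 tested (18.2%). That last count fell to 2 to 4 when 1 SST library was left out and to 3 without the libraries with Pcp2 above 10 CPM, with Car8 called in 4 of 10 alternatives and Car11 in 3 of 10. Between the regions' total RNA, 7 of 8 were called (58.2%). A large share of all genes was called in most of these comparisons. Car9, near its floor in the cerebrum, was called in the cerebral Gad2 (higher), PV (lower) and vGluT2 (lower) IPs against total RNA. It was also called between the cerebral vGluT2 and Gad2 IPs. Its counts per control library were 14 to 48 in the Gad2 IP, 0 to 13 in the PV IP and 0 to 12 in the vGluT2 IP. Against total RNA, the Gad2 and PV calls each held in 5 of 7 alternatives. Some mice gave both an IP and a total RNA library, and the fits above do not use this. With mouse as a block, over mice with both libraries (6 libraries per cell type), the members called against total RNA were 3 in cerebral Gad2 neurons (16.8% of all genes called), 5 in PV (54.9%), 3 in SST (43%) and 3 in cerebral vGluT2 neurons (48.6%, 7 members tested), and 6 in Gad2 (32.1%) and 7 in vGluT2 neurons (47%) of the cerebellum. Between the regions' total RNA they were 7 (65.7%), over 8 libraries. When each IP was set only against its own line's total RNA, 4 were called in PV and 3 in cerebral vGluT2 neurons.

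Against this pattern HD was tested in each group. Car9 gave the largest effect. In the cerebellar vGluT2 IP the 5 control libraries had 25.4, 20.9, 20.9, 25.7 and 21.8 CPM, and the 6 HD libraries had 3.97 to 7.93 CPM with a median of 4.99 CPM. Every HD library lay below every control library. Car9 fell by 2.06 on the log2 scale (SE 0.17, adjusted p = 3.14e-05), the 1 of 8 members called in that comparison, in which 2.11% of all genes were called (DESeq2 called 4 members, and edgeR without HD_VglutCb replicate 4 called 3). It was called under all 16 alternatives, with log2 changes from -2.20 to -1.98 and adjusted p from 1.64e-27 to 9.86e-04. In bulk libraries, fewer cells of a type and less RNA per cell cannot be told apart.

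Granule cell markers moved in the same comparison. The 6 markers summed to 11098, 10951, 11115, 11510 and 8273 CPM in the controls and to 5538 to 8104 CPM in the HD libraries, median 6856 CPM, with no overlap. All 6 had negative log2 changes, with a median of -0.49 beside -0.01 over all genes tested, and Cbln3, the most abundant, fell by 0.80 (SE 0.09, adjusted p = 3.39e-04) and Neurod1 by 0.87 (SE 0.16, adjusted p = 0.00914). None of the markers was at 0. Their part in the Car9 result was not tested, and the log2 change of Car9 was larger than that of any of the 6.

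In the cerebellar Gad2 IP, Car9 was 1.58 to 2.97 CPM in 6 control libraries, median 2.19 CPM, and 0.152 to 0.860 CPM in 6 HD libraries, median 0.674 CPM. Again every HD library was below every control library. The log2 change was -1.88 (SE 0.37, unadjusted p = 1.52e-04), but the adjusted p was 0.357, and DESeq2 gave 3.67e-04, in a range of 3.67e-04 to 1 over 18 alternatives. No member was called there by edgeR, with 0.0142% of all genes called; 3 of 8 had an unadjusted p under 0.05 (2.30% of all genes) and DESeq2 called 1, Car9. Granule markers summed to 869 to 1649 CPM in these controls and 608 to 1405 CPM in the HD libraries, with overlap. The granule marker Cbln3 averaged 424 CPM in these controls and 301 CPM in the HD libraries. The part of granule cell RNA in the Car9 values of this IP was not tested. The difference of the HD effects between the vGluT2 and Gad2 IPs was -0.20 (SE 0.39, adjusted p = 0.933), and 0 of 8 members were called in that interaction test by edgeR, where 0.107% of all genes were; 1 had an unadjusted p under 0.05 (7.08% of all genes) and DESeq2 called 0.

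Cerebellar total RNA showed the same direction in both lines. Most of these libraries came from mice that also gave a cerebellar IP library, so they are not independent of the IPs. In the Gad2 line Car9 was 11.4, 8.32 and 13.2 CPM in controls and 3.71, 3.49 and 2.42 CPM in HD mice. In the vGluT2 line it was 8.14, 10.04, 9.79 and 8.49 CPM in controls and 3.56, 3.95, 5.78 and 3.36 CPM in HD mice. All 7 HD libraries lay below all 7 controls. Car9 fell by 1.47 on the log2 scale (SE 0.16, adjusted p = 4.88e-04), and it was 1 of 2 members called, with Car2, where 24.5% of all genes were called. In the vGluT2 line alone the change was -1.26 (SE 0.19), and in the Gad2 line alone -1.77 (SE 0.25), where edgeR called 0 of all genes. With each library's transcript length correlation as a term, added after the values were seen, it was -1.77 (SE 0.15, adjusted p = 4.92e-05), and 77 genes were called in place of 3544. Over 7 alternatives the adjusted p ran from 3.00e-14 to 0.722. The granule markers were lower beside it, at 4032 to 5806 CPM in these controls, median 4313 CPM, and 2939 to 4445 CPM in the HD libraries, median 3561 CPM, with overlap. All 6 had negative log2 changes (median -0.53 beside -0.0094 over all genes) and Cbln3 was called (-0.55), though not with the transcript length term (adjusted p = 0.217). Their part in the Car9 change was not tested.

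In the cerebrum Car9 was near the limit of detection. It was not tested in the SST and vGluT2 IPs, where its mean count did not exceed 10. In the SST IP it was 0.450, 0.303, 0.215, 0.0856 and 0.459 CPM in controls and 0.0249, 0, 0.111 and 0.135 CPM in HD mice. In the Gad2 IP it was 0.446 to 1.41 CPM in controls, median 0.781 CPM, and 0.411 to 0.700 CPM in HD mice, median 0.497 CPM. The log2 change there was -0.76 (SE 0.31, adjusted p = 0.536). In the PV IP Car9 was higher in HD mice on average, at 0 to 0.391 CPM in controls, median 0.206 CPM, and 0.102 to 0.524 CPM in HD mice, median 0.306 CPM, with a log2 change of 0.58 (SE 0.57, adjusted p = 0.9999) that stayed above 0 in the 15 alternatives in which it was tested (0.31 to 1.03). In the vGluT2 IP it was 0 to 0.182 CPM in controls and 0 to 0.156 CPM in HD mice. In cerebral total RNA the change was -0.14 (SE 0.26, adjusted p = 0.975).

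Car2 was the member called in cerebral total RNA. By line, its control libraries had 244, 272 and 315 CPM (Gad2), 260, 339 and 262 CPM (PV), 318, 289, 273 and 247 CPM (SST), and 312, 280 and 232 CPM (vGluT2). The HD libraries had 162, 197 and 201 CPM (Gad2), 243, 176 and 169 CPM (PV), 194, 169 and 191 CPM (SST), and 137, 188 and 155 CPM (vGluT2). Within each line every HD library was below every control library, and pooled, 11 of 12 lay below all 13 controls. Car2 fell by 0.60 on the log2 scale (SE 0.07, adjusted p = 2.52e-05), the 1 of 8 members called, where 0.645% of all genes were called. Each line alone gave -0.57 (SE 0.13), -0.52 (SE 0.20), -0.61 (SE 0.14) and -0.71 (SE 0.14) for Gad2, PV, SST and vGluT2, and none of these was called, at adjusted p from 0.502 to 1, where edgeR called 0 of all genes in each line. Over all 12 alternatives the adjusted p ran from 9.76e-17 to 1.

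In cerebellar total RNA Car2 was 221, 185 and 250 CPM in controls and 160, 164 and 146 CPM in HD mice of the Gad2 line, and 185, 215, 231 and 222 CPM in controls and 81.4, 163, 186 and 154 CPM in HD mice of the vGluT2 line. The Gad2 line did not overlap, and in the vGluT2 line 1 HD library reached the lowest control. Car2 fell by 0.59 (SE 0.14, adjusted p = 0.0280). With the transcript length term it was -0.65 (SE 0.17) and no longer called, at an adjusted p of 0.128, within a range of 0.00287 to 0.9999 over its alternatives.

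The neuronal IPs gave Car2 changes of the same sign. They share mice with the total RNA libraries, so these signs are not independent of those in total RNA. The PV IP had 94.8 to 134 CPM in 6 controls, median 120 CPM, and 73.3, 76.4, 84.7, 83.2 and 86.0 CPM in HD mice. These ranges did not overlap, yet the log2 change of -0.53 (SE 0.10) had an adjusted p of 0.104, with 6.16e-04 by DESeq2 and 6.16e-04 to 0.954 over 18 alternatives. In the cerebral Gad2, SST and vGluT2 IPs the log2 changes were -0.55 (SE 0.19), -0.35 (SE 0.17) and -0.54 (SE 0.20), and the ranges overlapped. In the cerebellar vGluT2 and Gad2 IPs they were -0.34 (SE 0.18) and -0.13 (SE 0.10).

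The oligodendrocyte list was lower beside Car2 in total RNA. Its sum over 8 genes ran from 5198 to 7272 CPM in the 13 cerebral controls, median 5745 CPM, and from 3490 to 6054 CPM in the 12 HD libraries, median 4854 CPM. There 6 of 8 genes had negative log2 changes, with a median of -0.17 beside 0.02 over all genes tested, and Cldn11 was called (-0.51, SE 0.07, adjusted p = 3.36e-04). In cerebellar total RNA the sum was 4263, 4099 and 4959 CPM in controls and 3331, 3587 and 3178 CPM in HD mice of the Gad2 line, and 4512, 4617, 4761 and 5347 CPM in controls and 4049, 4003, 5054 and 3729 CPM in HD mice of the vGluT2 line. Mobp was among the genes called lower there (-1.05, SE 0.18), and Cnp was called higher (0.54, SE 0.18); with the transcript length term neither was called (adjusted p = 0.0634 and 0.551). Mbp was the most abundant gene and none was at 0 in total RNA. In the PV IP the sum was 1610 to 2613 CPM in controls and 1401, 1202, 1389, 1612 and 1750 CPM in HD mice. In the other IPs its median was lower in HD mice too, with overlapping ranges. Control and HD medians were 872 and 695 CPM (cerebral Gad2), 3288 and 2968 CPM (SST) and 550 and 398.5 CPM (cerebral vGluT2). In the cerebellum they were 1112 and 896 CPM (Gad2) and 728 and 647 CPM (vGluT2). The part of these cells in the Car2 results was not tested.

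**Figure D3:**
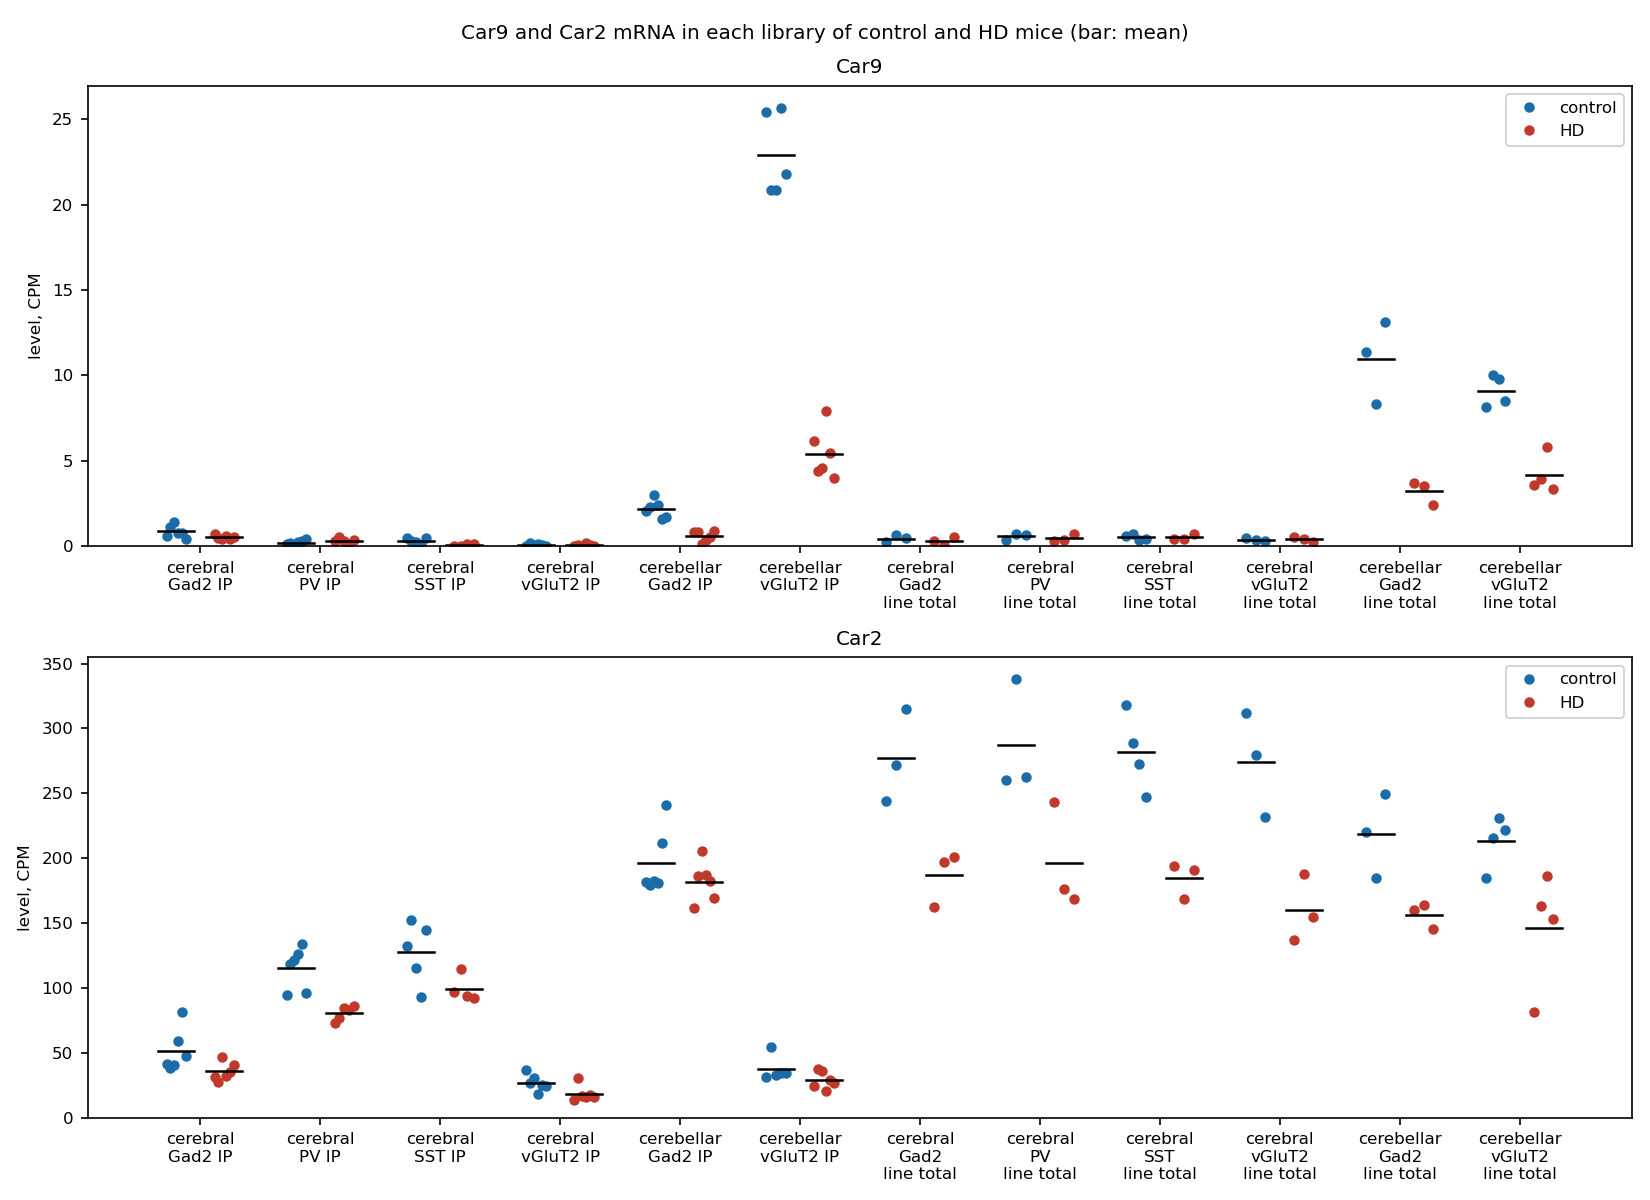
Points are single libraries of control (blue) and HD (red) mice in CPM, with a bar at the mean, for Car9 above and Car2 below in each IP and total RNA group. Car9 shows no overlap between genotypes in the 4 cerebellar groups, and Car2 shows none in the total RNA of each of the 4 cerebral lines.

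The other membrane enzymes had lower values in HD cerebellar neurons without passing the test. In the cerebellar vGluT2 IP Car4 was 182, 115, 128, 161 and 102 CPM in controls and 50.6 to 110 CPM in HD mice, median 85.0 CPM. Of the 6 HD libraries, 5 lay below all controls. The log2 change was -0.76 (SE 0.21, adjusted p = 0.0792), and it was called by DESeq2 (adjusted p = 0.00754) and without HD_VglutCb replicate 4 (-0.88, SE 0.20, adjusted p = 0.0446), in a range from 0.00754 to 0.205. Car12 was 5.33, 7.74, 3.74, 5.36 and 4.29 CPM in controls and 0.947 to 4.35 CPM in HD mice, median 2.32 CPM, with 5 of 6 below all controls. Its log2 change was -1.05 (SE 0.31, adjusted p = 0.112), called by DESeq2 (adjusted p = 0.0288), in a range from 0.0288 to 0.278. Choroid plexus genes summed to 162, 300, 238, 180 and 44.1 CPM in these controls and to 46.6 to 483 CPM in the HD libraries, so their ranges overlapped; Ttr led, and Folr1 and Aqp1 were at 0 in at least 1 HD library. In the cerebellar Gad2 IP Car4 changed by -0.51 (SE 0.18) and Car12 by -1.25 (SE 0.63), neither called. In total RNA the values of Car4 were -0.06 (SE 0.13) in the cerebrum and -0.12 (SE 0.18) in the cerebellum.

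Among the forms without enzyme activity, Car11 in the cerebellar vGluT2 IP was 62.1 to 98.2 CPM in controls, median 69.6 CPM, and 34.7 to 62.9 CPM in HD mice, median 46.6 CPM. Of the 6 HD libraries, 5 lay below all controls. The log2 change was -0.60 (SE 0.16, adjusted p = 0.0713), called by DESeq2 (adjusted p = 0.00977) and without HD_VglutCb replicate 4 (-0.69, SE 0.15, adjusted p = 0.0325), in a range from 0.00977 to 0.188. In cerebral total RNA it changed by -0.32 (SE 0.14), called with the transcript length term (adjusted p = 0.00527), in a range from 0.00527 to 1. In cerebellar total RNA of the vGluT2 line all 4 HD libraries lay above all 4 controls, while in the Gad2 line they overlapped, and the pooled change was 0.09 (SE 0.15). With the transcript length term that change was -0.28 (SE 0.11), the opposite sign.

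Car8 in cerebellar total RNA was 963, 1152 and 1139 CPM in controls and 956, 774 and 946 CPM in HD mice of the Gad2 line, and 1217, 1141, 990 and 1231 CPM in controls and 328, 935, 742 and 973 CPM in HD mice of the vGluT2 line. In both lines every HD library was below every control, most of all HD_VglutCb_tot replicate 1. The log2 change was -0.55 (SE 0.20, adjusted p = 0.0544), called by DESeq2 (adjusted p = 0.0293) and in the vGluT2 line alone (-0.76, SE 0.28, adjusted p = 0.0421), where 7565 of 14630 genes were called and the length lean cannot be told apart from genotype, and with the transcript length term -0.38 (SE 0.23), in a range from 0.0293 to 0.9999. In the cerebellar Gad2 IP, where Purkinje cells are tagged, Car8 was 3026 to 4461 CPM in controls, median 3817 CPM, and 2670 to 4010 CPM in HD mice, median 3531 CPM, and the change was -0.13 (SE 0.11). The Purkinje list summed to 1965, 1702 and 1993 CPM in control and 1583, 1760 and 1477 CPM in HD total RNA of the Gad2 line, and to 1741, 1899, 1876 and 1892 CPM in control and 1641, 1738, 1691 and 1642 CPM in HD total RNA of the vGluT2 line. Of its 7 genes, Calb1 and Foxp2 were among those called lower, though neither was with the transcript length term (adjusted p = 0.372 and 0.592), while Pcp2 (log2 change 0.048, SE 0.18) and Ppp1r17 (-0.058, SE 0.089) were not called. Calb1 was the most abundant and none was at 0. Without Calb1, left out after its values were seen, the sum was 1010, 1030, 1209 and 972 CPM in control and 1145, 1193, 1261 and 1083 CPM in HD total RNA of the vGluT2 line, so the lower sums there rest on Calb1. In the Gad2 line it was 1431, 1022 and 1284 CPM in control and 1072, 1335 and 833 CPM in HD libraries. The part of these cells in the Car8 values was not tested.

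In the cerebral Gad2 and PV IPs the sign of Car8 depended on the libraries with Pcp2 above 10 CPM. The log2 changes were 0.38 (SE 0.93) and 1.02 (SE 1.13) with them and -0.41 (SE 0.35) and -0.28 (SE 0.25) without them. Single libraries were enough for this: the change was -0.76 (SE 0.86) in the Gad2 IP without HD_GadCer replicate 2 and -2.27 (SE 0.78) in the PV IP without HD_PV replicate 3. Car10 had small negative values in all 4 cerebral IPs, from -0.46 (SE 0.22) in Gad2 to -0.20 (SE 0.08) in PV neurons, and 0.13 (SE 0.19) in the cerebellar Gad2 IP. Car7, in its highest group, the cerebellar Gad2 IP, was 125 to 207 CPM in controls and 90.3 to 178 CPM in HD mice, medians 162 and 122 CPM, with a change of -0.36 (SE 0.17, adjusted p = 0.9999). Neither was called in any HD comparison with all libraries, and Car10 was called in cerebellar total RNA of the vGluT2 line alone (-0.41, SE 0.13, adjusted p = 0.0234, in a range from 0.0234 to 0.9999), where 7565 of 14630 genes were called and control and HD libraries leaned to long and short transcripts. With the transcript length term over both lines its change was -0.025 (SE 0.11, adjusted p = 0.950).

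**Figure D4:**
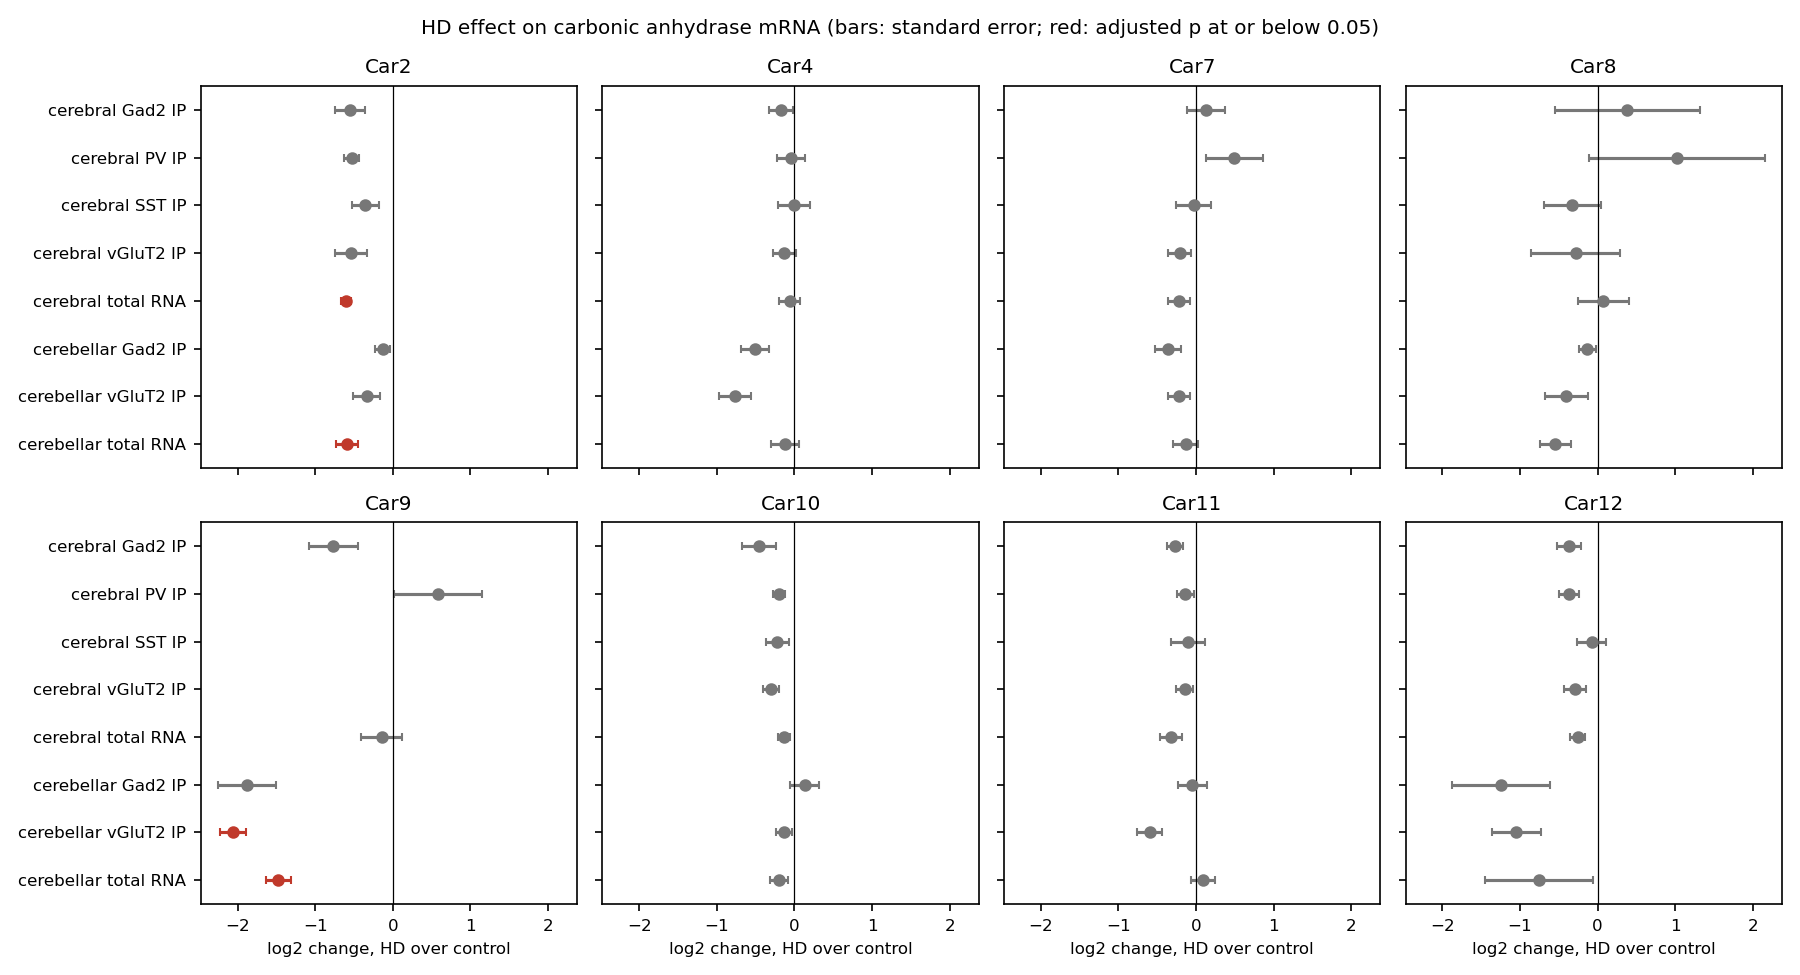
Each panel shows 1 gene, with the log2 change of HD over control on the horizontal axis for 5 cerebral and 3 cerebellar comparisons, points for the estimate and bars for its standard error. Red marks the 4 called changes, Car9 in the cerebellar vGluT2 IP and in cerebellar total RNA and Car2 in both total RNA comparisons, and missing points are genes that were not tested.

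Read over all members, most HD changes were below 0, though 4 were called and no test of the members as a set was made. Many mice gave libraries to more than 1 HD comparison, so the signs are not independent between comparisons. Negative log2 changes were found for 8 of 8 members in the cerebellar vGluT2 IP (median -0.50; 51.6% of all genes below 0), 7 of 8 in the cerebellar Gad2 IP (median -0.25; 48.8%), 7 of 8 in cerebellar total RNA (median -0.37; 50.7%) and 7 of 8 in cerebral total RNA (median -0.18; 44.1%). In the cerebrum they were 6 of 8 in the Gad2 IP (median -0.32; 50.9%), 5 of 8 in the PV IP (median -0.09; 49.1%), 7 of 7 in the SST IP (median -0.10; 48%) and 7 of 7 in the vGluT2 IP (median -0.28; 53%). The medians over all genes lay between -0.018 and 0.020. With DESeq2's size factors in place of TMM, these counts were the same in all 8 comparisons. By edgeR, 0 members were called in the cerebral Gad2 IP (0.0279% of all genes), the PV IP (0.034%), the SST IP (0%) and the vGluT2 IP (0.00697%). The numbers with an unadjusted p under 0.05 were 4, 3, 0 and 2, beside 9.15%, 4.28%, 1.41% and 7.28% of all genes, and DESeq2 called 0, 1, 0 and 0. The interaction of cerebral vGluT2 and Gad2 neurons called 0 members and 0% of all genes by edgeR, with 0 members at an unadjusted p under 0.05 (209 of all genes) and 0 members (1 gene in all) by DESeq2.

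Other genes of the pathway were read in the same HD comparisons. Of the other 8 carbonic anhydrases, 4 or 5 were tested in each comparison and none was called by edgeR in any of the 8, with 1 value in all at an unadjusted p under 0.05 and 0 called by DESeq2. Among 10 bicarbonate transporters, Slc4a11 fell in cerebral total RNA (-1.72, SE 0.23, adjusted p = 2.00e-04), and in cerebellar total RNA Slc4a3 rose (0.47, SE 0.13) and Slc4a4 fell (-0.84, SE 0.23). Of the proton, lactate and chloride transporters, Slc12a2, which loads chloride into cells, fell in cerebellar total RNA (-1.23, SE 0.35). Of the binding partners and related domains, Itpr1 (-0.93, SE 0.25) and Ptprz1 (-0.89, SE 0.27) fell in cerebellar total RNA. Of the 8 hypoxia-inducible genes, Slc2a1 (0.39, SE 0.12) and Ldha (0.45, SE 0.15) rose in cerebellar total RNA while Car9 fell, and in the cerebellar vGluT2 IP 0 of 8 were called by edgeR, with a median of 0.08 beside -0.01 over all genes, 1 gene at an unadjusted p under 0.05 and 0 called by DESeq2. The cerebellar total RNA changes are those of the comparison in which libraries differed in transcript length lean, and with the transcript length term none of these 7 genes was called there (adjusted p from 0.315 to 0.620).

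Marker genes of other cells were also called. In cerebellar total RNA, where 24.5% of all genes were called against at most 2.11% in the other HD comparisons, Cbln3 (-0.55), Aqp4 (-1.02), Gja1 (-0.72), Grik3 (-0.45), Lgi2 (-0.78), Kcna2 (-0.83), Sorcs3 (-0.44), Gad2 (-1.001), Gad1 (-0.35), Calb1 (-0.56) and Foxp2 (-1.32) were lower on the log2 scale. C1qa (0.60), Tmem119 (0.66), Slc17a7 (0.57) and Adora2a (0.76) were higher. With the transcript length term, added after the values were seen, none of these 15 was called (adjusted p from 0.207 to 0.684). Aqp4 and Gja1 belong to the astrocyte list, whose sum in cerebellar total RNA overlapped between genotypes in both lines. For the Gad2 line it was 4527, 4166 and 4132 CPM in controls and 3658, 4421 and 3514 CPM in HD mice. For the vGluT2 line it was 4140, 3774, 4291 and 3655 CPM in controls and 4722, 4156, 4848 and 4186 CPM in HD mice. In cerebral total RNA, Adora2a (-0.77), Drd2 (-0.52) and Penk (-0.80), markers of striatal projection neurons, were lower, and in the cerebellar vGluT2 IP Ppp1r1b was lower (-0.62).

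Among the other carbonic anhydrases in control mice, the membrane enzyme Car14 was depleted like Car2. Its log2 change in the IP against total RNA was -4.05 (SE 0.20) in cerebral vGluT2, -2.73 (SE 0.25) in cerebral Gad2 and -2.47 (SE 0.23) in cerebellar vGluT2 neurons. Car13 and the mitochondrial Car5b were lower in the same 3 IPs, by values from -3.58 to -2.01, and Car15 was higher, from 0.51 to 0.88. Car1, Car5a and Car6 had no count in any control library of the cerebellar vGluT2 IP.

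The genes most like each member over the 54 control libraries, by Pearson correlation of log2(CPM + 1) among 14800 protein-coding genes, were Hadh, Sorbs3 and 2310022B05Rik for Car2 (0.978, 0.971 and 0.957), Cacna1g, Garnl3 and Eps8l2 for Car7 (0.977, 0.973 and 0.972), Tbata, Sept3 and Boc for Car4 (0.963, 0.951 and 0.944) and Grm4, Chil5 and Chn2 for Car9 (0.983, 0.978 and 0.977). For Car8 they were Arhgef33, the Purkinje marker Ppp1r17 and Atp2a3 (0.985, 0.980 and 0.980), for Car10 Rell1, Ipcef1 and Tmem163 (0.944, 0.924 and 0.901) and for Car11 Nat14, C2cd2l and Dgat2 (0.968, 0.968 and 0.957). Car12 had no gene above 0.807, its nearest being Dclk3, Crip2 and Tle1 (0.807, 0.804 and 0.799). The libraries share regions, lines and mice, so these values describe likeness only. Between members, over the means of 12 control groups, the correlations largest in size were 0.861 for Car7 and Car8, -0.860 for Car8 and Car11, 0.846 for Car4 and Car10, 0.822 for Car4 and Car9 and 0.815 for Car11 and Car12.

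The genes lie apart in the genome (GRCm38), except that Car4 and Car10 are both on chromosome 11 and Car8 and Car9 both on chromosome 4, and none overlaps another protein-coding gene. RefSeq promoter windows of 300 bases (build GRCm38.p6, 250 bases before to 50 after a start) were found for 6 of the 8, Car4, Car7, Car9, Car10, Car11 and Car12, in 10 windows. They were searched for ACGTG, the core of the hypoxia response element, on both strands (CACGT on the reverse), which 19.6% of 32851 windows hold. It was present in 3 windows, of Car9, Car4 and Car10. These 3 are shown because they hold it, and no link of these letters to expression was tested. All 3 windows are on the + strand. Capitals mark the match, which is the reverse form CACGT for Car9 and Car4 and ACGTG for Car10. The match is a description and not a site. The other Car10 window and those of Car7, Car11 and Car12 do not hold these letters.
Car9 chr4:43506776-43507075: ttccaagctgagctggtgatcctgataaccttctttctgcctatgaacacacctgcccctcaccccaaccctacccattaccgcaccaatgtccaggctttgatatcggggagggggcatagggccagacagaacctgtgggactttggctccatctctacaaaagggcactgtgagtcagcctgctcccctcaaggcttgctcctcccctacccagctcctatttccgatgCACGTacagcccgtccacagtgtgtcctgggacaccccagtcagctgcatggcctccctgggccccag
Car4 chr11:84957504-84957803: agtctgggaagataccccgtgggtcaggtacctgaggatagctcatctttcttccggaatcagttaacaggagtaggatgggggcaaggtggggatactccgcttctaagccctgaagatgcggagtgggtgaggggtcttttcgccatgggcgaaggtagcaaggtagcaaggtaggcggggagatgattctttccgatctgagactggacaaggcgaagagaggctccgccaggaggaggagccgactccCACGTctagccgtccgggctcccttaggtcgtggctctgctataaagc
Car10 chr11:93099040-93099339: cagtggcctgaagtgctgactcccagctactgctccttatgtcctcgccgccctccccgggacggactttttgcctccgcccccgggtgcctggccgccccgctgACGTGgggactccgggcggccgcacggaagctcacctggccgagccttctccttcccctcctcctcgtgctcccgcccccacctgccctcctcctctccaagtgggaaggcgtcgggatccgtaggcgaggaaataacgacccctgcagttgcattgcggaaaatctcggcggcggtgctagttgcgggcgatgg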

How the data were processed

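Values come from 106 libraries of RiboTag IP and total RNA made with a stranded TruSeq mRNA kit. The deposited table holds estimated counts per gene, which the authors made with STAR and Salmon on build GRCm38.p6; 8.57% of its values are not whole, and counts were rounded here. It lists 55401 mouse genes and 92 spike-in sequences, the latter not used here. Gene names, types and lengths are from GENCODE M21, which matched 55141 genes, since the release behind the table is not stated. Depth ran from 21905221 to 107753586 counts per library, with a median of 35866726, and by group the median depth lay between 29017527 (HD_GadCb_tot) and 45464390 (HD_VglutCb_tot).

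Levels are CPM, counts relative to the library total with TMM scaling over all 106 libraries from 14800 genes, and per kilobase they are divided by the union of exons. Adjusted p-values are from edgeR 4.0.16 (quasi-likelihood F test, Benjamini-Hochberg over all genes tested), with protein-coding genes whose mean count exceeded 10, called at or below 0.05. SE is the standard error of the log2 change, derived for edgeR as the size of the log2 change over the square root of F. Total RNA comparisons pool lines with line as a term. DESeq2 1.42.0 was the other test, in R 4.3.3 with limma 3.58.1; tables were made in pandas 2.3.3 and numpy 2.4.6 under Python 3.11.15, with matplotlib 3.10.9 for plots. The fits were tested on simulated data. Group labels are C or HD, then cell type and region, with tot for total RNA. Alternatives were DESeq2, its size factors, no filter, all gene types, a replicate block, a mouse block, total RNA of the same line, single lines, leaving out libraries, and 2 chosen after seeing the data: leaving out cerebral libraries with Pcp2 above 10 CPM and a transcript length term.

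The text names all 8 members, listed genes called in an HD comparison, at most 4 examples per list in other comparisons, and the 3 nearest genes of each member. Results of 3 listed genes are not reported here; list sums, medians and counts still include every gene of a list. Members and lists were chosen with earlier results of these data known, and comparisons and the other alternatives before the data were examined.

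Limits: 3 to 6 libraries per group leave small changes undetected, mRNA was measured and protein was not, no glial IP exists, and sex is not used here as a term. Ribosome-bound mRNA can include carry-over from untagged cells.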

Additional observations from a re-analysis of the deposited data

Results flagged for a closer look

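In 120 groups of 4 to 6 libraries (8 genes), 16 had 1 library far from the others, judged by its gap to the nearest other library against the group's whole range. Chance gives about 1 in 20 groups, and the groups share libraries. No difference between groups under the same contrast passed its edgeR interaction test for any member (1 member at an unadjusted p under 0.05 in the cerebellum and 0 in the cerebrum; DESeq2 called 0 in both).

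Car8 gave 7 of them: C_GadCer replicate 4 at 102 CPM (others 5.16 to 40.2), C_PV replicate 2 at 230.1 CPM (13.6 to 61.5), HD_PV replicate 3 at 597 CPM (7.58 to 16.2), HD_SST replicate 2 at 22.6 CPM (6.78 to 9.11), C_VglutCb replicate 2 at 284 CPM (137 to 174), C_VglutCer replicate 5 at 5.92 CPM (2.57 to 3.56) and HD_VglutCer replicate re1 at 0.0404 CPM (3.19 to 4.43). Car7 gave 2, in libraries where Car8 stood apart too: C_GadCer replicate 4 at 15.8 CPM (6.71 to 8.92) and HD_PV replicate 3 at 36.4 CPM (7.49 to 10.2).

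Car2 stood apart in C_VglutCb replicate 2 at 54.5 CPM (31.4 to 34.4) and HD_VglutCer replicate 2 at 30.8 CPM (13.8 to 17.8), and Car4 in C_PV replicate 3 at 2.75 CPM (5.32 to 6.68). Car11 did so in C_PV replicate 6 at 91.9 CPM (66.9 to 74.4) and HD_SST replicate 4 at 139.7 CPM (64.2 to 75.8), and Car12 in C_VglutCer replicate 4 at 15.6 CPM (18.7 to 20.5) and HD_GadCer replicate 4 at 34.0 CPM (19.5 to 24.7).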

How the results depend on the processing

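Over 157 log2 changes of members, 1571 of 1688 values under alternatives kept their direction and their side of the threshold, 50 lost the call, 14 gained it and 53 changed sign. The sign changes belong to 26 log2 changes, with 0 called by edgeR in the original setting and 0 under the alternative. The cause of each change below was not tested, except that fewer libraries or lines mean fewer degrees of freedom. Of 96 levels per kilobase, 70 moved by more than the spread between replicates when the longest transcript set the length.

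Genes called for HD, in the order cerebral Gad2, PV, SST and vGluT2 IP, cerebellar Gad2 and vGluT2 IP, cerebral and cerebellar total RNA, were 4, 5, 0, 1, 2, 285, 96 and 3544 by edgeR, with 1313, 630, 207, 1045, 324, 2090, 1046 and 6423 at an unadjusted p under 0.05. DESeq2 gave 75, 42, 2, 25, 22, 665 and 213 in the first 7, and 73 and 1 in the cerebellar and cerebral interactions, where edgeR gave 15 and 0 (989 and 209 at an unadjusted p under 0.05). DESeq2 also called 1 carbonic anhydrase in the PV IP and 1 in the cerebellar Gad2 IP (0 by edgeR) and 4 in the cerebellar vGluT2 IP (1 by edgeR). With DESeq2's size factors, no filter or all gene types, edgeR called 0, 0 and 0 genes in the cerebral vGluT2 IP and 1, 1 and 0 in the cerebellar Gad2 IP. No filter and all gene types gave the cerebral interaction of Car2 as -0.036 and -0.042 and of Car4 as -0.0012 and -0.0074, and no filter gave Car11 as 0.0093 in the cerebellar Gad2 IP against total RNA.

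With the replicate block, edgeR called 9, 0, 0, 0 and 109 genes in the cerebral Gad2, PV and vGluT2 and the cerebellar Gad2 and vGluT2 IPs, and HD log2 changes with the other sign were Car8 at -0.13 in the cerebral Gad2 IP, -0.0073 in PV and 0.0016 in vGluT2, and Car4 at 0.16 in PV. Without the re-sequenced library, 0 genes were called in the cerebellar Gad2 IP, Car11 was 0.018 there and Car4 0.014 in the PV IP. Without Z mice (mouse labels starting with Z, all of them SST controls), Car4 was 0.00010 in the SST IP. In that setting 4770 genes in place of 9194 differed between SST IP and total RNA.

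In cerebral total RNA each line alone called 0 genes and 0 carbonic anhydrases by edgeR, and leaving out the SST line 21 genes. Gad2, PV and SST lines alone gave Car4 as 0.031, 0.11 and 0.061, Gad2 and SST Car8 as -0.026 and -0.37, and SST and vGluT2 Car9 as 0.017 and 0.19. In cerebellar total RNA the Gad2 line alone called 0 genes and 0 carbonic anhydrases, with Car10 at 0.069 and Car11 at -0.16, and the vGluT2 line alone 7565 and 4, with Car4 at 0.018. The transcript length term, chosen after seeing the data, gave 405 genes and 2 carbonic anhydrases in cerebral and 77 and 1 in cerebellar total RNA, with Car11 there at -0.28.

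Without the cerebral libraries with Pcp2 above 10 CPM, also chosen after seeing the data, edgeR called 0 genes in the Gad2 and 0 in the PV IP (836 and 422 at an unadjusted p under 0.05) and 46 in cerebral total RNA. The HD changes of Car8 were -0.41 (Gad2) and -0.28 (PV), and that of Car4 0.12 (PV). Interactions were 0.13 for Car8 and -0.16 for Car12. Car8 against total RNA was -0.52 in the Gad2 and 0.33 in the SST IP, PV against SST gave 1152 genes in place of 2650 and 3 carbonic anhydrases in place of 5, and Car7 there was -0.10.

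Against total RNA of the same line, 4790 genes in place of 9260 were called in the cerebral Gad2 IP, and 4 carbonic anhydrases in place of 7 in PV and 3 in place of 6 in cerebral vGluT2 neurons. With mouse as a block, the counts were 2494 genes and 3 carbonic anhydrases in place of 6 in cerebral Gad2, 3 in cerebral vGluT2, and 4558 genes in place of 8214 in cerebellar Gad2 neurons, and Car7 was 0.016 in PV neurons.

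Leaving out 1 library at a time gave 3 to 12 genes in the cerebral Gad2 IP (12 without HD_GadCer replicate 4), 0 to 4 in PV, 0 to 1 in SST (1 without HD_SST replicate 3), 0 to 1 in cerebral vGluT2, 0 to 3 in cerebellar Gad2, 149 to 255 in cerebellar vGluT2 (149 without C_VglutCb replicate 1) and 13 to 25 in the cerebellar interaction (25 without C_VglutCb replicate 5). Carbonic anhydrases called were 1 to 3 in the cerebellar vGluT2 IP (3 without HD_VglutCb replicate 4) and 2 to 4 for PV against SST (2 without C_SST replicate 1). There Car11 was lost without C_SST replicates 1, 3 and 4 (adjusted p = 0.0719, 0.109 and 0.102), Car12 without replicate 2 (0.0706) and Car4 without replicate 1 (0.0543), with ranges over all alternatives of 0.0219 to 0.128, 0.00735 to 0.0706 and 0.00705 to 0.0543.

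Ranges of log2 changes that crossed 0 in this way were, for HD, Car7 -0.057 to 0.38 and Car8 -0.76 to 1.38 in the cerebral Gad2 IP (both below 0 without HD_GadCer replicate 2), Car4 -0.18 to 0.014, Car7 -0.21 to 0.67 and Car8 -2.27 to 2.11 in PV (Car7 and Car8 below 0 without HD_PV replicate 3), Car4 -0.22 to 0.11, Car7 -0.31 to 0.13 and Car11 -0.40 to 0.015 in SST, and Car11 -0.23 to 0.030 in the cerebellar Gad2 IP. Car8 in the SST IP against total RNA ran from -0.29 to 0.033, and Car12 between the cerebellar vGluT2 and Gad2 IPs from -0.13 to 0.20. Depth limits Car9 in the cerebrum, where single libraries had no count.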
